A study of Mus musculus with 308 samples.

Results

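The glutathione peroxidase genes of the mouse were followed across 7 tissues of animals dosed with fumarate esters. The members were the genes Gpx1, Gpx2, Gpx3, Gpx4, Gpx7 and Gpx8, and a probe set was taken as a member's when that gene was its only symbol in the platform's gene table. This gave 7 probe sets for 6 genes, of 28898 single-symbol probe sets for 17097 genes. Gpx4 had 2 probe sets and each other member had 1. Expression was read as log2 values on 308 Affymetrix HT MG-430 PM arrays of C57Bl/6 mice, from jejunum, kidney, spleen, the mesenteric and the inguinal lymph node, brain and whole blood. Dosing was once a day over 10 days, and organs were collected 12 h later than the final dose. Dimethyl fumarate (DMF) was given at 100 mg/kg in the group DMF100 and at 179.2 mg/kg in the group DMF179.2. The group MEF79.2 received monoethyl fumarate (MEF) at 79.2 mg/kg as its Ca, Mg and Zn salts, and the combination received the DMF dose of the first group and the MEF dose of MEF79.2 together. A further group is labelled Nav, a name that is not explained. The vehicle group received 0.8% hydroxypropyl methylcellulose. The labels name no genetic change in any group, and give neither age nor sex. Each group held 5 to 8 arrays per tissue, all of whole tissue.

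Glutathione peroxidases reduce hydrogen peroxide or organic hydroperoxides with electrons from glutathione, and glutathione reductase then returns the oxidised glutathione to its reduced form. GPX1 to GPX4 carry selenocysteine at the active site, whereas GPX7 and GPX8 carry cysteine there and act in the endoplasmic reticulum, where peroxide is made during protein folding. DMF and MEF are esters of fumaric acid: DMF is a diester with methyl groups, and MEF a monoester with an ethyl group. DMF is a medicine known to modify the sensor KEAP1 and so to activate the transcription factor NRF2, which binds antioxidant response elements, and Gpx2 is among the genes known to respond to NRF2.

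RefSeq places Gpx1 at chr9:108339080-108340342, Gpx2 at chr12:76792335-76795554 and Gpx3 at chr11:54902854-54910387 of the mouse assembly GRCm38.p6. Gpx4 lies at chr10:80047166-80056439, Gpx7 at chr4:108400217-108406713 and Gpx8 at chr13:113042757-113046430. All 6 genes matched RefSeq's promoter table, with 4 annotated starts for Gpx4 and 1 for each other member. The 250 bases before 3 starts are shown, since Gpx2 was measured above the filter in jejunum alone, Gpx4 had the most called changes, and Gpx7 changed in the same 2 tissues under 2 treatments. They are read 5′ to 3′ on the strand of the gene, with capitals on CCAAT and GGGCGG on either strand. The Gpx2 bases lie at chr12:76795555-76795804 on the minus strand, the Gpx4 bases at chr10:80053315-80053564 on the plus strand and the Gpx7 bases at chr4:108406714-108406963 on the minus strand.
Gpx2: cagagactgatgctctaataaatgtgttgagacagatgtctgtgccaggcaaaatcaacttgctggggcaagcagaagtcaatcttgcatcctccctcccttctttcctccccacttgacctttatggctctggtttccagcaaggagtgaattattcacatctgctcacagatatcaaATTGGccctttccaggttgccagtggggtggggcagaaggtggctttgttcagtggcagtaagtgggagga
Gpx4: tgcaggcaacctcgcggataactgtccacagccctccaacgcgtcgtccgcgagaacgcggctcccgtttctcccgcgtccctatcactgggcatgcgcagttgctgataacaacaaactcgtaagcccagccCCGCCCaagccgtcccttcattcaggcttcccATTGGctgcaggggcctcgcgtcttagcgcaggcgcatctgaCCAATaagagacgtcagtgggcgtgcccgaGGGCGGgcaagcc
Gpx7: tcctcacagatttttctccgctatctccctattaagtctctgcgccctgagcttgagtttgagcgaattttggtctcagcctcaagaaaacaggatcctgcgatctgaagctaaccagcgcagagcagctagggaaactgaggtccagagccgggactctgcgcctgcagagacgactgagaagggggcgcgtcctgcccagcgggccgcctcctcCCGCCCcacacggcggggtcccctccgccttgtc

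The core of the antioxidant response element, TGACNNNGC, was searched on both strands and was found in 0 of the 9 member windows, against 10.2% of 32851 windows of the same length over all genes. That says only that these letters are not in these windows. CCAAT was found in 5 of the 9 member windows and in 33.8% of all windows, and GGGCGG in 5 of the 9 and in 32.7% of all. TATAAA was found in 0 of the 9 and in 12.4% of all. Gpx4 alone gives 4 of the 9 windows, and some of these overlap each other. The Gpx4 bases printed above hold 2 matches each of CCAAT and GGGCGG, the Gpx2 bases 1 CCAAT and the Gpx7 bases 1 GGGCGG. No 2 of these motifs overlap in the printed bases.

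The tissue labels went with their defining markers in the vehicle arrays, such as Alas2 in blood, Snap25 in brain, Fabp2 in jejunum, Umod in kidney and Cd79a in both nodes and spleen. The jejunum arrays also carried the ileal genes Fabp6 and Fgf15, at vehicle means of 11.55 and 9.08 on the log2 scale. The fat cell gene Adipoq averaged 11.90 in vehicle mesenteric nodes, 9.53 in vehicle jejunum, 9.44 in vehicle inguinal nodes and 9.12 in vehicle kidneys. In whole tissue, fewer cells of a type and less RNA per cell cannot be told apart. The array of mesenteric node labelled DMF179.2 replicate 23 had the lowest median correlation with the other arrays of that tissue, 0.983. Called changes of DMF179.2 against vehicle there are given with and without it. Comparisons with Nav, tests across tissues, and fits of the second Gpx4 probe set or the mean of both were not repeated without it. A member was tested in a tissue when it lay above the median of all values there in at least 5 arrays, which left 35 pairs of a member and a tissue. Gpx2 was tested in jejunum alone and Gpx7 in every tissue but blood, while Gpx1, Gpx3, Gpx4 and Gpx8 were tested in all 7.

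The members differed widely in where they were found. Because each tissue had its own scale, the level in a tissue is given as the rank within an array, where 100% is the brightest probe set. Gpx1, the cytosolic enzyme found in nearly all cells, was among the brightest genes of every tissue, with mean ranks in vehicle arrays of 99.8% in blood and kidney, 99.1% in spleen, 98.8% in mesenteric node, 98.6% in inguinal node, 97.9% in jejunum and 94.1% in brain. The ranges of blood and kidney overlapped, as did those of mesenteric and inguinal node and of spleen and mesenteric node, and every brain array lay below every array of the other 6 tissues. Gpx2, the enzyme of the gut epithelium, averaged 12.07 ± 0.53 on the log2 scale in vehicle jejunum (SD, n = 8), a rank of 97.4%. In the other 6 tissues its vehicle means lay between 2.13 and 2.77, below the filter in every vehicle array. Gpx3 encodes the enzyme secreted into plasma, for which the kidney is the known main source, and it had a mean rank of 99.98% in vehicle kidneys. Its rank was 96.6% in mesenteric node, 95.6% in inguinal node, 94.3% in spleen, 88.7% in jejunum, 82.7% in brain and 57.0% in blood, and the ranges of the nodes and the spleen overlapped.

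Gpx4 encodes the enzyme that reduces lipid hydroperoxides within membranes, whose loss leads to ferroptosis, a form of cell death. Its mean ranks in vehicle arrays ran from 97.7% in kidney through 95.2% in blood, 94.5% in brain, 93.2% in jejunum, 92.8% in mesenteric node and 90.8% in inguinal node to 90.4% in spleen. Kidney lay above all other tissues in every array, and each neighbouring pair below it overlapped. Gpx7, a soluble enzyme of the endoplasmic reticulum, lay near the median probe set, with mean ranks of 61.8% in brain, 57.0% in mesenteric node, 55.5% in kidney, 52.9% in inguinal node, 51.7% in spleen, 47.1% in jejunum and 36.9% in blood. Brain lay above the other tissues in every array, and each neighbouring pair below it overlapped. Gpx8, a membrane protein of the endoplasmic reticulum, had mean ranks of 90.9% in kidney, 83.6% in mesenteric node, 79.4% in jejunum, 76.5% in inguinal node, 75.9% in spleen, 74.6% in brain and 62.7% in blood. Its vehicle inguinal nodes spread from 72.3 to 86.4%, across the ranges of spleen, brain, jejunum and mesenteric node. Signals of different probe sets depend on the probes, so ranks of different members are no comparison of transcript numbers.

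**Figure D1:**
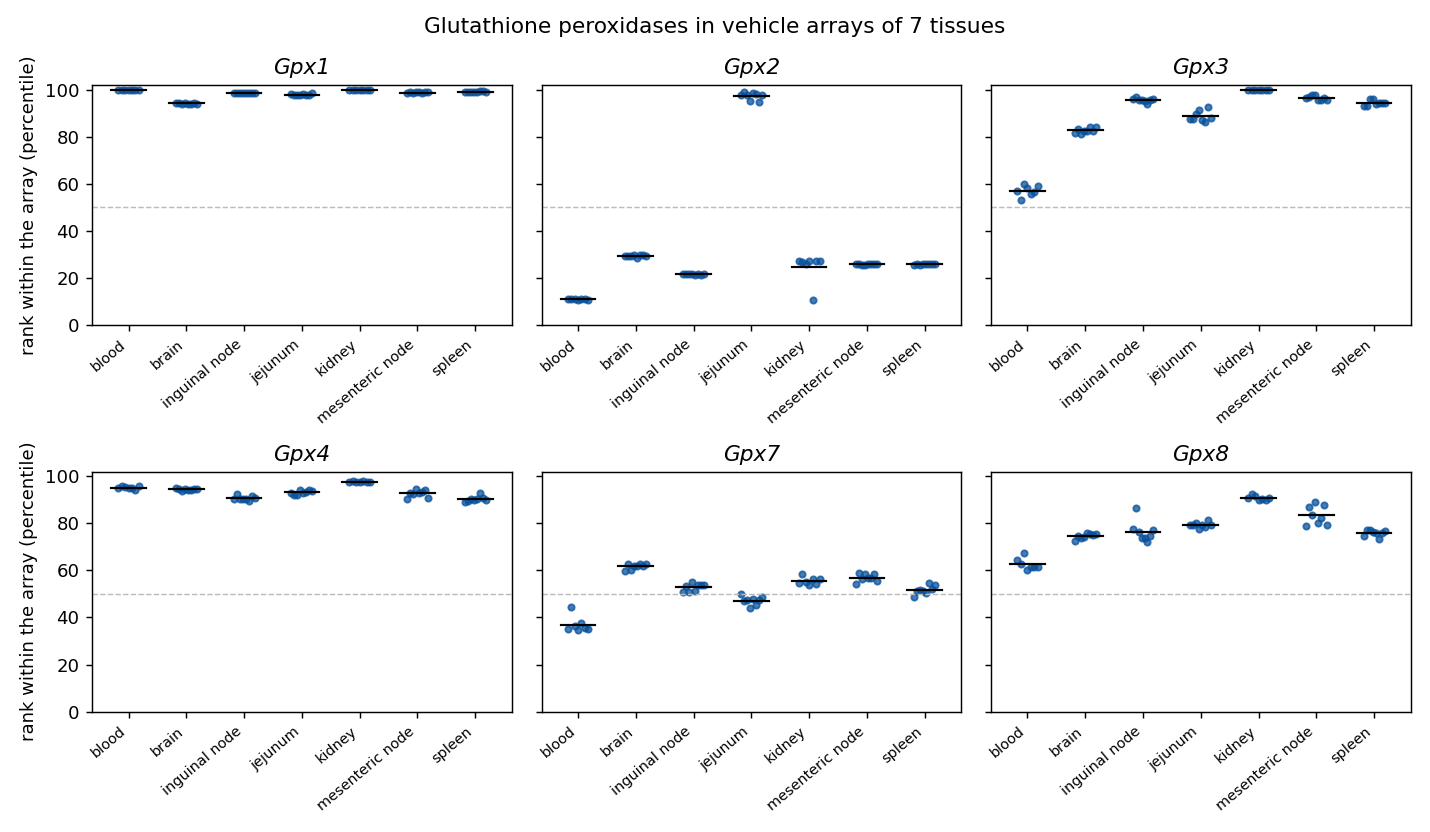
Rank within the array, in percent of all probe sets, for each glutathione peroxidase in the vehicle arrays of 7 tissues; each point is an array, black bars are group means and the dashed line is the median probe set. Gpx1 lies above 93% in all tissues, Gpx2 is high in jejunum alone, and Gpx3 ranks highest in kidney.

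Against vehicle, called changes of the members were increases of modest size. Calls are limma tests whose p, after Benjamini-Hochberg adjustment over all genes of the tissue, was under 0.05. Over the 35 pairs of a member and a tissue, DMF179.2 had 7 calls (20.0%), against 11.4% of all gene-by-tissue tests. The combination had 5 (14.3%), against 6.79% of all, and MEF79.2 had 2 (5.71%), against 2.79% of all. DMF100 had 0 calls, against 2.02% of all tests. At an unadjusted limma p under 0.05 it had 2 pairs, and all genes had from 789 of 10763 in brain to 2422 of 10706 in kidney. All 14 calls under these 4 treatments were higher than vehicle, between 1.07-fold for Gpx3 in kidney under the combination and 1.59-fold for Gpx8 in mesenteric node under DMF179.2. The comparisons share their vehicle arrays. The shares of the members and of all genes were not tested against each other, and the count under MEF79.2 was 1 without brain replicate 25.

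**Figure D2:**
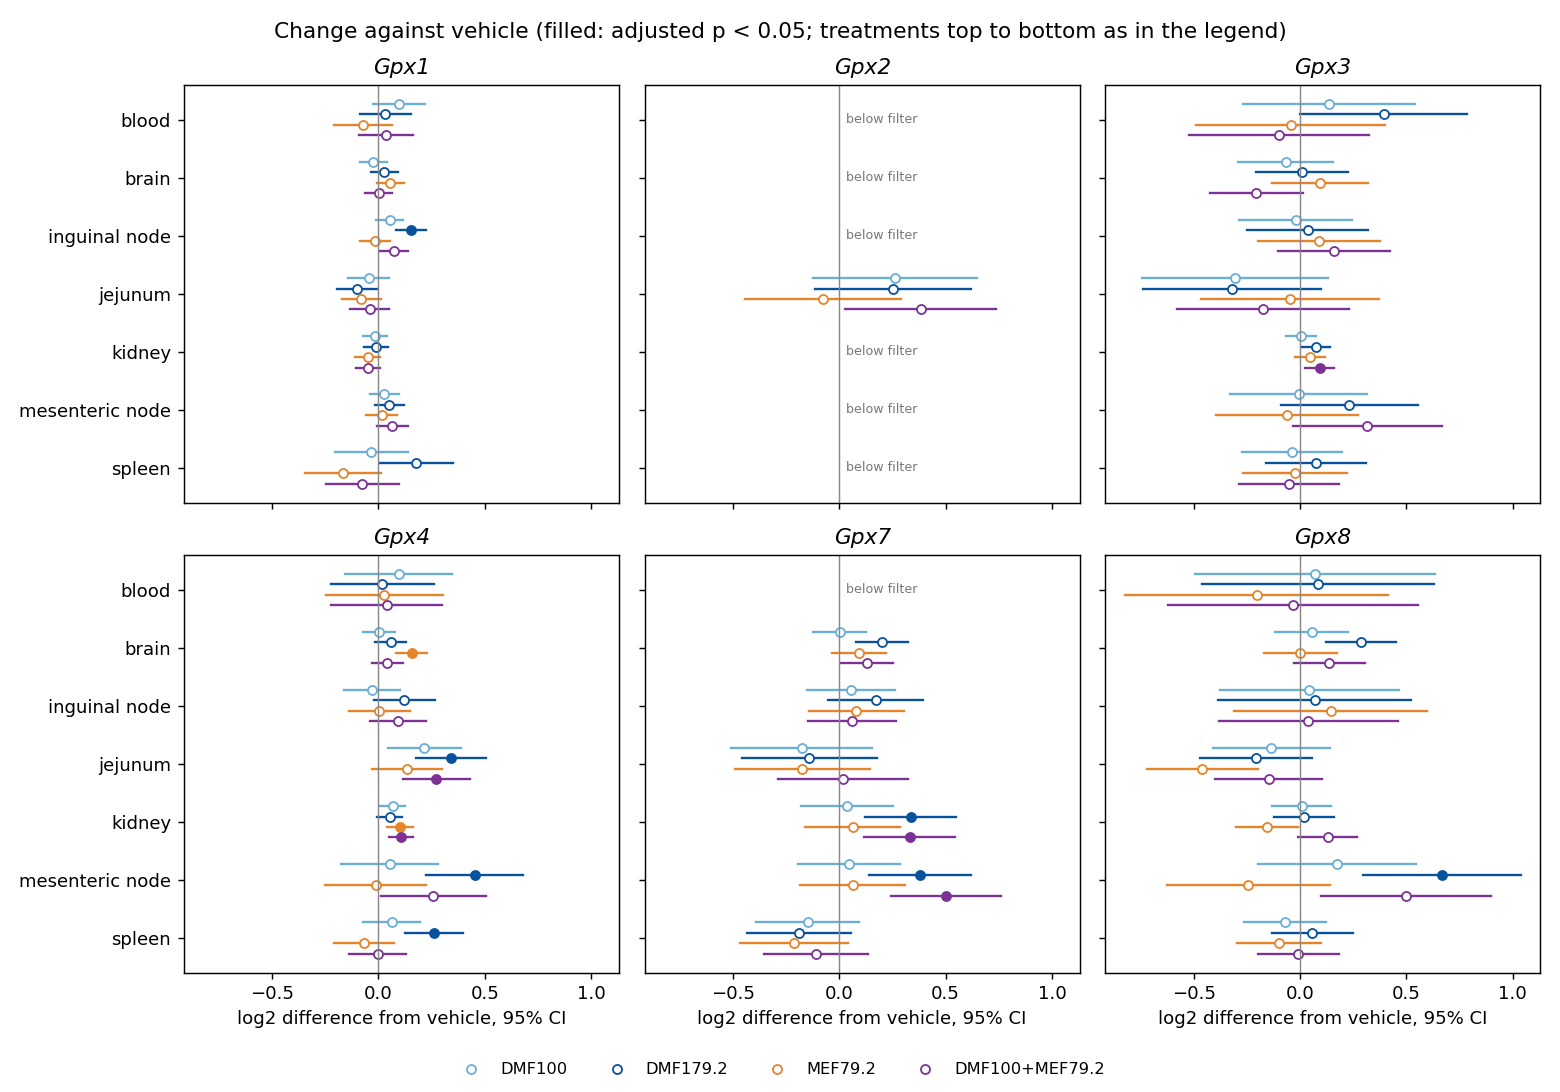
Difference from vehicle on the log2 scale with 95% confidence intervals from limma for each member, tissue and treatment; filled points passed an adjusted p of 0.05 and treatments run from DMF100 at the top to the combination at the bottom of each tissue. The filled points lie to the right of 0, and Gpx4 and Gpx7 hold most of them.

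Gpx1 was higher than vehicle in 1 tissue, the inguinal node, under DMF179.2. The 6 arrays of DMF179.2 had a lowest, median and highest value of 12.18, 12.27 and 12.29, against 12.01, 12.09 and 12.16 in the 8 vehicle arrays. All 6 lay above the highest vehicle array, in a comparison with 0.379% of genes called. The share of all genes whose groups did not overlap was not counted. The difference was 0.15 ± 0.03 on the log2 scale (SE; limma adjusted p = 0.0307), or 1.11-fold. It was no longer called with each array centred on its median, with hybridisation controls as a covariate or with the 2 groups fitted alone, where the adjusted p reached 0.14. In spleen, Gpx1 under DMF179.2 ran from 12.65 through a median of 12.75 to 13.04, against 12.37, 12.60 and 12.91 in vehicle, a difference of 0.18 ± 0.09 (limma adjusted p = 0.121) with overlapping groups. In jejunum the difference under DMF179.2 was -0.10 ± 0.05 (adjusted p = 0.0913, limma), and with array weights it was called as a decrease, at -0.12 (limma adjusted p = 0.0332).

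Gpx2 was not called in jejunum under any treatment. The lowest, median and highest values were 12.23, 12.34 and 12.45 in 6 DMF100 arrays and 12.10, 12.34 and 12.62 in 7 DMF179.2 arrays. They were 11.62, 11.93 and 12.58 in 7 MEF79.2 arrays and 12.30, 12.45 and 12.71 in 8 arrays of the combination. The vehicle arrays ran from 11.26 through 12.14 to 12.92 (8 arrays), and every array of these treatments lay within that range. DMF100 gave a difference of 0.26 ± 0.19 (limma adjusted p = 0.713) and DMF179.2 one of 0.25 ± 0.18 (95% interval -0.12 to 0.62, limma adjusted p = 0.311). MEF79.2 gave -0.08 ± 0.18 (limma adjusted p = 0.902) and the combination 0.38 ± 0.18 (0.03 to 0.74, limma adjusted p = 0.19). The spread differed between groups, with an SD of 0.08 in DMF100, 0.17 in DMF179.2, 0.33 in MEF79.2, 0.14 in the combination, 0.56 in Nav and 0.53 in vehicle arrays. The difference in spread was not tested.

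**Figure D3:**
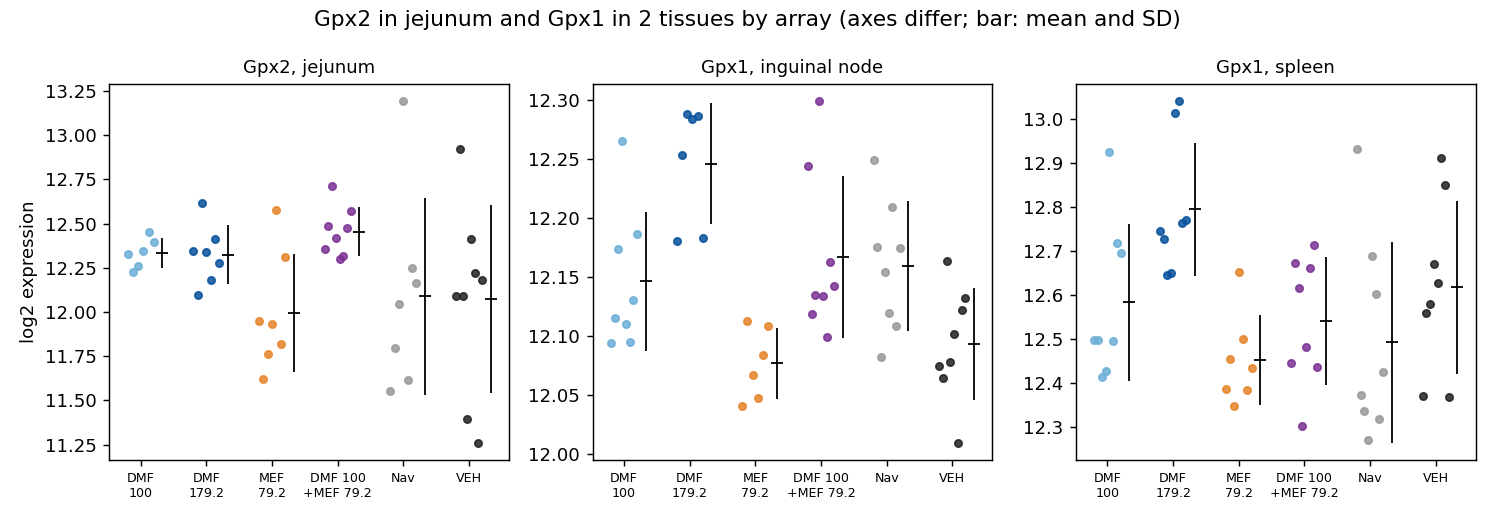
Gpx2 in jejunum and Gpx1 in inguinal node and spleen on the log2 scale, with 1 point per array and the mean and SD beside each group; vertical axes differ. Gpx2 spreads from 11.26 to 12.92 in vehicle and from 12.23 to 12.45 under DMF100, and the DMF179.2 arrays of Gpx1 in inguinal node lie above the vehicle arrays.

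Gpx3 had 1 call, in kidney, its brightest tissue, under the combination. The 8 arrays there ran from 13.70 through 13.82 to 13.84, against 13.64, 13.69 and 13.81 in 7 vehicle arrays, and 5 of the 8 lay above the highest vehicle array. The difference was 0.09 ± 0.03 on the log2 scale (limma adjusted p = 0.041). In the same kidneys 30.3% of genes were called. The call was lost in 10 of 46 fits that left out 1 kidney array, and under 4 of 10 other settings. Elsewhere Gpx3 ranged from -0.32 in jejunum to 0.39 in blood under DMF179.2, both uncalled (limma adjusted p = 0.252 and 0.312).

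Gpx4 was the member with the most calls, 7 of the 14. In jejunum under DMF179.2 it ran from 10.87 through 11.23 to 11.38, against 10.63, 10.87 and 11.05 in vehicle, and 6 of 7 arrays lay above the highest of 8 vehicle arrays. The difference was 0.34 ± 0.08 on the log2 scale, or 1.27-fold (limma adjusted p = 0.00225), where 27.4% of genes were called. Under the combination jejunum ran from 10.97 through 11.12 to 11.28, a difference of 0.27 ± 0.08 (adjusted p = 0.0429, limma), where 3.84% of genes were called. That call was lost in 9 of 43 fits that left out 1 jejunum array, and under 5 of 10 other settings (limma adjusted p up to 0.111). Hybridisation controls as a covariate were among those 5 settings, while the DMF179.2 call stayed with them. In jejunum the mean of these controls differed from vehicle by -0.16 in the combination and by -0.13 under DMF179.2. DMF100 gave 0.22 ± 0.09 and MEF79.2 0.13 ± 0.08 in jejunum, both uncalled (limma adjusted p = 0.324 and 0.508).

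In spleen under DMF179.2, Gpx4 ran from 10.27 through 10.54 to 10.70, against 10.10, 10.24 and 10.64 in vehicle. Of the 8 treated arrays 2 lay above the highest vehicle array, so the groups overlapped. The difference was 0.26 ± 0.07 (limma adjusted p = 0.00594), in a comparison with 24.4% of genes called. In mesenteric node under DMF179.2 it ran from 10.41 through 10.71 to 11.18, against 9.94, 10.34 and 10.67 in vehicle, and 4 of 8 arrays lay above the vehicle range. The difference there was 0.45 ± 0.11 (adjusted p = 0.0117, limma), or 1.37-fold, where 7.88% of genes were called. Without replicate 23 it was 0.39 ± 0.11 (limma adjusted p = 0.0426), and with the 2 groups fitted alone it was not called (limma adjusted p = 0.0684).

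In kidney the changes of Gpx4 were small and the arrays tight. Under the combination all 8 arrays, between 11.89 and 11.98 with a median of 11.93, lay above the highest of 7 vehicle arrays, which ran from 11.75 through 11.84 to 11.88. The difference was 0.11 ± 0.03, or 1.08-fold (limma adjusted p = 0.00532), where 30.3% of genes were called. The share of all genes whose groups did not overlap was not counted. Under MEF79.2 kidney ran from 11.88 through 11.92 to 12.00, a difference of 0.10 ± 0.03 (adjusted p = 0.0191, limma), where 14.2% of genes were called. Without MEF79.2 replicate 30 or without vehicle replicate 3 that call was lost, with a limma adjusted p of up to 0.0553. In brain, MEF79.2 ran from 11.37 through 11.44 to 11.70, against 11.20, 11.31 and 11.40 in vehicle, a difference of 0.16 ± 0.04 (limma adjusted p = 0.0412), where 0.362% of genes were called. Without MEF79.2 replicate 25, the brain array at 11.70, the difference was 0.11 ± 0.03 and uncalled (limma adjusted p = 0.109).

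**Figure D4:**
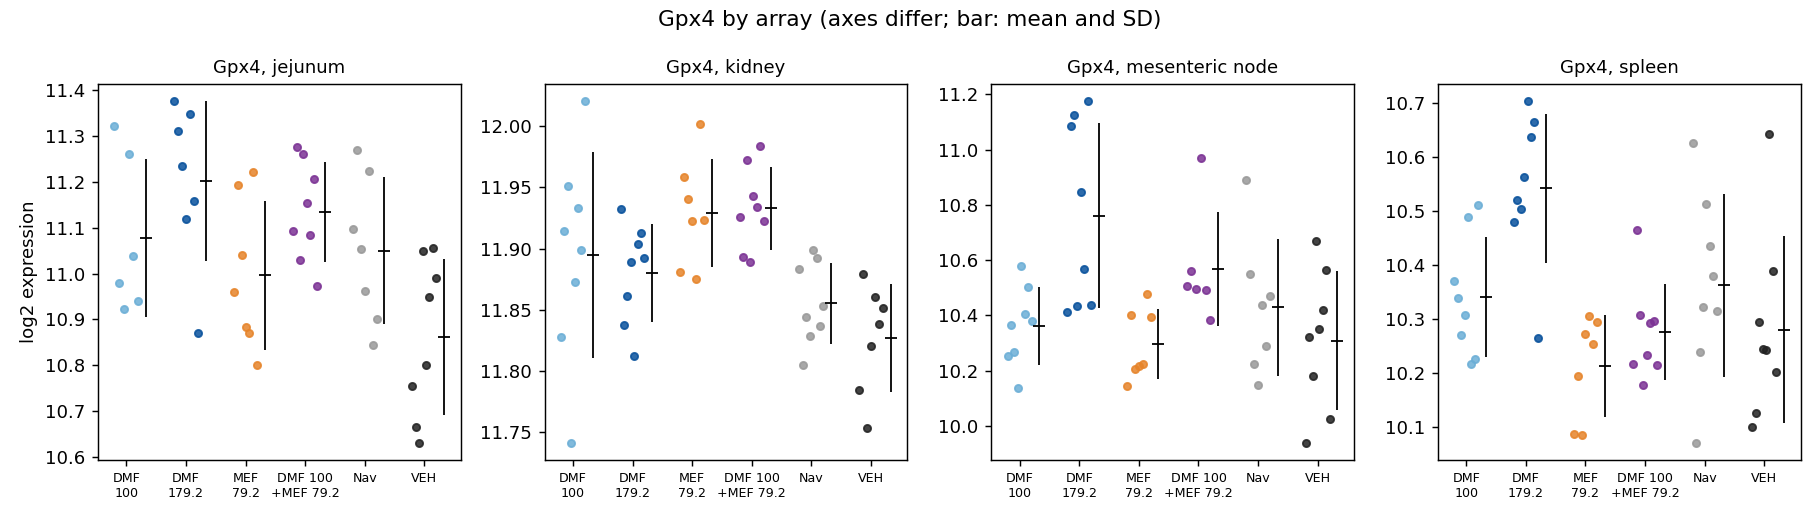
Gpx4 on the log2 scale in jejunum, kidney, mesenteric node and spleen, with 1 point per array and the mean and SD beside each group; vertical axes differ. The kidney arrays of the combination all lie above the vehicle arrays, while the DMF179.2 arrays of mesenteric node spread from 10.41 to 11.18.

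The second Gpx4 probe set did not give the same calls. The values above are of the brighter set, whose suffix marks probes that can also bind related sequences. In a fit over all probe sets, the other set was called in kidney under all 4 treatments. It was higher by 0.11 ± 0.03 in DMF100 kidneys (limma adjusted p = 0.0235), by 0.14 ± 0.03 in DMF179.2 (0.00237), by 0.15 ± 0.03 in MEF79.2 (0.00186) and by 0.18 ± 0.03 in kidneys of the combination (3.58e-05). The set was also higher in Nav kidneys than in vehicle, by 0.08 ± 0.03 (limma adjusted p = 0.0382). With 1 probe set per gene, 8.09, 16.7, 14.2 and 30.3% of kidney genes were called under the 4 treatments in that order. In Nav kidneys 49.8% were called. In mesenteric node under DMF179.2 the set was higher by 0.70 ± 0.15 (limma adjusted p = 0.00556), not refitted without replicate 23. It missed the threshold in jejunum under DMF179.2 (0.26 ± 0.10, limma adjusted p = 0.0504) and the combination (0.19 ± 0.10, 0.246), in spleen under DMF179.2 (0.18 ± 0.08, 0.0993) and in brain under MEF79.2 (0.12 ± 0.03, 0.0516).

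Other cell types moved in the same tissues, and their part in the Gpx4 values was not tested. In jejunum under DMF179.2, 3 of 4 fibroblast genes tested fell, and so did 2 of 4 crypt genes and 2 of 3 ileal genes, with medians of -0.47, -0.21 and -3.54 on the log2 scale. Of the Paneth cell genes 1 of 2 fell and of the goblet cell genes 1 of 3, while 1 of 4 enterocyte genes rose. Over all genes of that comparison 27.4% were called. The summed log2 level of the 3 ileal genes ran from 9.95 to 31.8 in these arrays, against 20.0 to 32.2 in vehicle. In spleen under DMF179.2, 2 of 5 genes of blood and erythroid cells rose (median 1.27), and their summed log2 level ran from 55.1 to 60.5, against 42.2 to 58.5 in vehicle. Mki67 also rose and 1 of 3 B cell genes fell there, where 24.4% of genes were called. In mesenteric node under DMF179.2, 0 of 3 fat cell genes, 0 of 4 fibroblast genes and 0 of 4 myeloid genes were called, and 1 of 3 B cell genes fell. The mean of the 3 fat cell genes was 11.44 ± 0.43 under DMF179.2 and 10.94 ± 0.62 in vehicle nodes (SD).

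Gpx7 rose in 2 tissues, kidney and mesenteric node, each under DMF179.2 and the combination. In kidney under DMF179.2 it ran from 5.92 through 6.12 to 6.29 and under the combination from 5.81 through 6.09 to 6.34, against 5.55, 5.73 and 6.12 in vehicle. The differences were 0.34 ± 0.11 (limma adjusted p = 0.025) and 0.33 ± 0.11 (0.0172). Of all kidney genes tested, the combination had 30.3% called against vehicle, and DMF179.2 had 16.7% called. Without vehicle replicate 4 the DMF179.2 call was lost (limma adjusted p = 0.0656). DMF100 and MEF79.2 gave 0.04 ± 0.11 and 0.06 ± 0.11 in kidney (limma adjusted p = 0.883 and 0.744). In kidneys of the combination 2 of 3 fibroblast genes tested also rose, with a median of 0.36, and 2 of 4 genes of nephron segments beyond the proximal tubule fell; their part in these values was not tested.

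In mesenteric node, Gpx7 under DMF179.2 ran from 6.21 through 6.37 to 6.88 and under the combination from 6.12 through 6.60 to 6.96, against 5.77, 6.07 and 6.28 in vehicle. Above the highest vehicle array lay 5 of 8 arrays of DMF179.2 and 5 of 6 of the combination. The differences were 0.38 ± 0.12 (limma adjusted p = 0.0401) and 0.50 ± 0.13 (0.0111), the second 1.42-fold. In these nodes 7.88% of genes were called under DMF179.2 and 12.7% under the combination. Leaving out replicate 23 of DMF179.2 gave 0.35 ± 0.12 and no call (limma adjusted p = 0.0965). Gpx7 lies close to the filter level in these tissues, which is 5.10 in kidney and 5.24 in mesenteric node on the log2 scale. In brain, where Gpx7 ranked highest, DMF179.2 gave 0.20 ± 0.06 (limma adjusted p = 0.0946).

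Gpx8 rose in 1 tissue, the mesenteric node, under DMF179.2. The 8 arrays ran from 9.07 through 9.61 to 10.24, against 8.47, 8.91 and 9.72 in 8 vehicle arrays, and 4 lay above the vehicle range. In this comparison 7.88% of genes were called. The difference of 0.67 ± 0.18 (limma adjusted p = 0.0213), or 1.59-fold, was the largest among the called changes of the members. Without replicate 23 it was 0.59 ± 0.19 and not called (limma adjusted p = 0.0671), nor was it with the 2 groups fitted alone. The combination gave 0.50 ± 0.20 (limma adjusted p = 0.0841), DMF100 0.17 ± 0.18 (0.72) and MEF79.2 -0.24 ± 0.19 (0.49) in the same nodes. The fat cell genes of these nodes, given above, were uncalled but had a higher mean under DMF179.2 than in vehicle. The part of fat cells or other cell types in the mesenteric node values of Gpx7 and Gpx8 was not tested. In brain, 7 of 8 arrays of DMF179.2 lay above the highest vehicle array, with values from 8.29 through 8.90 to 9.07, against 8.30, 8.58 and 8.69 in vehicle, and the difference of 0.29 ± 0.08 was not called (limma adjusted p = 0.0722). In jejunum MEF79.2 gave -0.46 ± 0.13, also uncalled (limma adjusted p = 0.149).

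**Figure D5:**
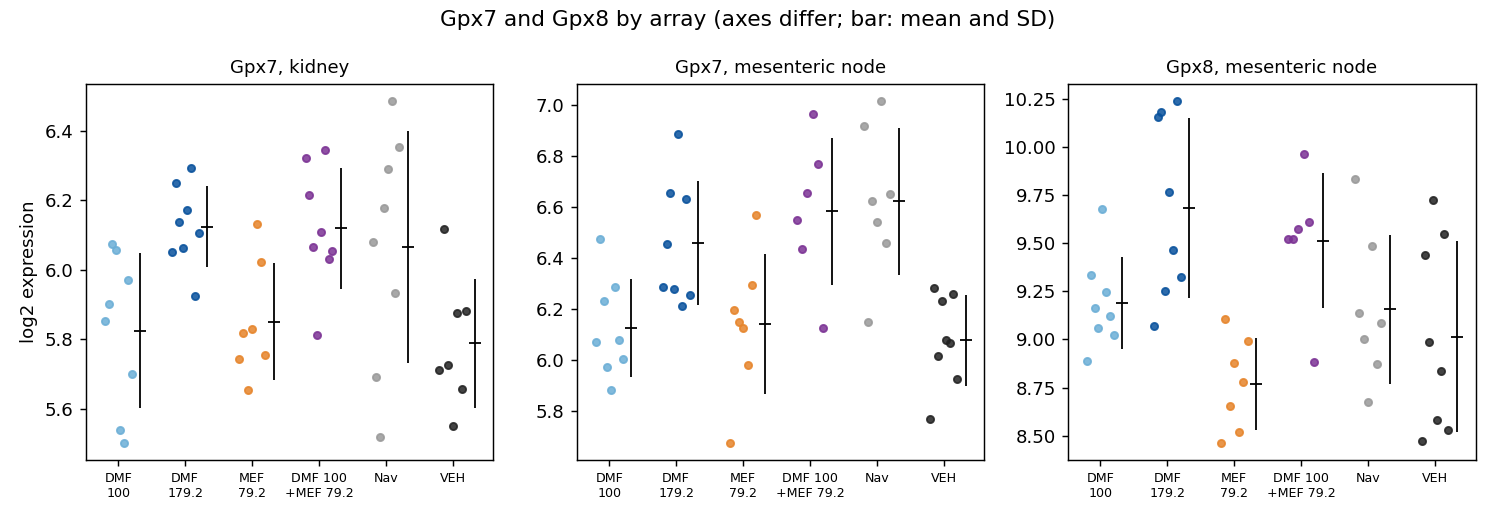
Gpx7 in kidney and mesenteric node and Gpx8 in mesenteric node on the log2 scale, with 1 point per array and the mean and SD beside each group; vertical axes differ. Gpx7 in mesenteric node lies between 6.12 and 6.96 under the combination, against 5.77 to 6.28 in vehicle.

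An interaction of tissue and treatment was tested with limma's F test, over the 7849 genes tested in every tissue, to ask whether a response differed among tissues; 4 members were among them. Under DMF179.2, Gpx4 (F = 4.48, adjusted p = 0.00207), Gpx1 (F = 3.87, 0.00606) and Gpx8 (F = 2.83, 0.0352) were called and Gpx3 was not (F = 2.16, 0.104), where 35.1% of genes were called. Under DMF100, MEF79.2 and the combination 0 of the 4 members were called by the same limma F test, where 3.52, 9.28 and 16.1% of genes were called. Of the members under these 3 treatments, only Gpx1 under MEF79.2 had an unadjusted p under 0.05. This F test and the difference that follows took arrays of different tissues as independent. Set directly, the DMF179.2 response of Gpx4 was 0.29 ± 0.09 larger in jejunum than in kidney (limma adjusted p = 0.0125), where 18.1% of 9695 genes were called. No other member tested in both tissues was called in that difference under DMF179.2, and Gpx7 came nearest, at -0.48 ± 0.19 (limma adjusted p = 0.069).

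Set against each other, the treatments gave few calls in the members. Over all genes the share called varied by tissue. It reached 14.6% in kidney for the combination against DMF100 and 11.6% in jejunum for DMF179.2 against DMF100. The shares of the members and of all genes were not tested against each other. DMF179.2 against DMF100, which asks for an effect of dose, had 0 calls over the 35 pairs, where 2.34% of all limma tests were called. At an unadjusted p under 0.05, all genes had from 871 of 10559 in inguinal node to 3112 of 10847 in jejunum. The members had 11 pairs at that p, all uncalled. The nearest were Gpx4 in mesenteric node, 0.40 ± 0.11 (95% interval 0.17 to 0.63, limma adjusted p = 0.0604; 0.34 ± 0.11 and 0.187 without replicate 23), and Gpx4 in spleen, 0.20 ± 0.07 (0.07 to 0.34, 0.0672). The second Gpx4 probe set was called for dose in mesenteric node, by 0.66 ± 0.15 (limma adjusted p = 0.0486), as was the mean of both sets, by 0.53 (0.038). For Gpx4 in jejunum the dose difference was 0.12 ± 0.09, with an interval of -0.05 to 0.30, where 11.6% of genes were called. The combination against DMF100, in which MEF salts were added at the same DMF dose, had 2 calls, where 3.43% of all tests were called. Both were Gpx7: 0.29 ± 0.10 in kidney (limma adjusted p = 0.0474), where 14.6% of genes were called, and 0.46 ± 0.13 in mesenteric node (0.0221), where 8.81% were called. The kidney call was lost in 22 of 46 fits that left out 1 array.

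DMF179.2 against the combination, at an equal total dose in mg/kg, had 1 call, where 2.44% of all tests were called. Gpx4 in spleen was 0.27 ± 0.07 higher under DMF179.2 (limma adjusted p = 0.0221), where 5.64% of genes were called there. Additivity, the effect of the combination less those of DMF100 and MEF79.2, had 0 calls in limma, where 0.396% of all tests were called. At an unadjusted p under 0.05 the members had 5 pairs. All genes had from 714 of 10763 in brain to 1527 of 10559 in inguinal node at that p. MEF79.2 and DMF100 differ in dose as well as in ester, so neither stands for the other compound at a matched dose. Their test had 1 call, Gpx4 in brain, 0.15 ± 0.04 higher under MEF79.2 (limma adjusted p = 0.0222), where 3.53% of brain genes and 2.89% of all tests were called, and it was lost without MEF79.2 brain replicate 25 (limma adjusted p = 0.0586).

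Genes that supply or work beside the glutathione peroxidases were counted in the same fits. Over all genes and tissues 11.4% of tests were called under DMF179.2, and 27.4% in jejunum. Under DMF100, MEF79.2 and the combination 2.02, 2.79 and 6.79% of all tests were called. The counts below are to be read against the share of the same treatment. Nqo1, a known NRF2 target, rose in all 7 tissues under DMF179.2, in 5 under DMF100 and the combination, and in 3 under MEF79.2. Of 38 pairs of a tissue and a gene of glutathione supply and recycling, 9 rose and 1 fell under DMF179.2, with a median of 0.33 in jejunum, against 0.02 over all genes there. In jejunum, Gss, which joins glycine in the last step of glutathione synthesis, rose by 0.99 ± 0.08 (limma adjusted p = 5.45e-12), and Chac1, which degrades glutathione, fell by 1.59 (limma adjusted p = 0.00505). Gsr, glutathione reductase, rose by 0.24 ± 0.04 in kidney (limma adjusted p = 0.000188). Of the same 38 pairs, 2 rose and 1 fell under DMF100, 1 rose under MEF79.2 and 5 rose under the combination.

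Other peroxide and superoxide enzymes gave 27 increases and 2 decreases among 82 pairs under DMF179.2, with medians of 0.13 in both jejunum and kidney, against 0.02 and 0.01 over all genes. By adjusted p they were led by Txnrd1, thioredoxin reductase, at 0.33 ± 0.03 in kidney (limma adjusted p = 9.69e-12) and Srxn1, sulfiredoxin, at 0.45 ± 0.05 in kidney (4.96e-09). DMF100 gave 6 increases there, MEF79.2 2 increases and 1 decrease, and the combination 8 increases and 1 decrease. Genes of selenoprotein synthesis and selenium supply gave 10 increases and 0 decreases among 62 pairs under DMF179.2, and of these 5 were in jejunum, where the list's median was 0.19. Among them, Eefsec, the elongation factor that brings selenocysteine to the ribosome, rose by 0.68 ± 0.12 (limma adjusted p = 0.000128) in jejunum, and Selenbp1, a selenium-binding protein, by 0.63 ± 0.11 (4.69e-05). This list gave 1 increase and 1 decrease under DMF100, 1 increase under MEF79.2 and 3 increases under the combination.

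The lipid peroxide and ferroptosis genes around Gpx4 gave 9 increases and 0 decreases among 37 pairs under DMF179.2, such as the transferrin receptor Tfrc in kidney, by 0.35 ± 0.07 (limma adjusted p = 0.000306). Their median was 0.21 in kidney and 0.30 in spleen, against 0.01 and 0.04 over all genes. They gave 0 calls in limma under DMF100, 2 decreases under MEF79.2, and the combination gave 1 decrease. The oxidative folding genes of the endoplasmic reticulum around Gpx7 and Gpx8 gave 2 increases and 3 decreases among 53 pairs under DMF179.2; Prdx4 is in this list and in that of other peroxide enzymes. Ero1a, the oxidase that makes peroxide while it renews protein disulfide isomerase, rose by 0.33 ± 0.06 in jejunum (limma adjusted p = 8.39e-05), and in mesenteric node 0 of 8 genes of this list were called by limma, where 7.88% of all genes were. It gave 0 calls under DMF100 and MEF79.2, and 1 increase and 2 decreases under the combination.

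With the mean of each tissue and group taken out, the genes most like each member in array-to-array variation were named. For Gpx2 over 43 jejunum arrays these were Duoxa2, the maturation factor of a peroxide-making oxidase of the gut (Pearson r = 0.90), Gsr (0.82) and B4galt1 (0.81). For Gpx1 over 308 arrays they were Prdx2, a red cell peroxiredoxin (r = 0.75), Hagh (0.73) and Fech, the last enzyme of haem synthesis (0.71). For Gpx4 they were Ndufb9 (0.70) and Uqcr11 (0.68), subunits of the mitochondrial respiratory chain, and Abhd5 (0.67). Gpx8 went with Ehd2 (0.60), Pdha1 (0.58) and Gpd1 (0.57), Gpx3 with Sqor (0.52), Tcn2 (0.50) and Abhd5 (0.49), and Gpx7, over 270 arrays of 6 tissues, with Fkbp7 (0.50), Hspb1 (0.50) and Amotl1 (0.48). These arrays share their tissue pieces and normalization, and the correlations are descriptions.

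The Nav group differed from vehicle in 4 of the 35 pairs (11.4%), where 18% of all tests were called. Gpx7 was higher in Nav mesenteric nodes, by 0.54 ± 0.12 (limma adjusted p = 0.000333), where 50.6% of genes were called, and in Nav kidneys, by 0.28 ± 0.11 (0.0287), where 49.8% were. The kidney call was lost under 5 of 9 other settings (limma adjusted p up to 0.0892) and in 5 of 46 fits that left out 1 array. The mean of the hybridisation controls was 0.19 above vehicle in Nav kidneys and 0.18 above it in Nav mesenteric nodes. With these controls as a covariate the Gpx7 call was lost in kidney and stayed in mesenteric node. Gpx1 in kidney was lower, at -0.10 ± 0.03 (limma adjusted p = 0.0034), and Gpx8 in brain higher, at 0.34 ± 0.08 (0.0166), where 3.83% of genes were called. Against Nav in place of vehicle, DMF100 had 3 calls, DMF179.2 4, MEF79.2 5 and the combination 1, where 16.6, 16.4, 13.9 and 7.66% of all tests were called. All calls under DMF179.2 and the combination were increases. Under DMF100 1 was an increase and 2 were decreases, and under MEF79.2 2 were increases and 3 decreases. The decreases included Gpx8 under MEF79.2 in jejunum, at -0.51 ± 0.13 (limma adjusted p = 0.0144), and brain, at -0.34 ± 0.08 (0.0274), and Gpx7 in DMF100 kidneys, at -0.24 ± 0.10 (0.0473). In mesenteric node Gpx4 under DMF179.2 was 0.33 ± 0.12 and Gpx8 0.53 ± 0.19 above Nav (limma adjusted p = 0.0186 and 0.0217), whereas Gpx7 was below Nav under DMF100, at -0.50 ± 0.12 (0.000936), and MEF79.2, at -0.48 ± 0.13 (0.00523). Gpx7 there was not called against Nav under DMF179.2, at -0.16 ± 0.12 (limma adjusted p = 0.274), or the combination, at -0.04 ± 0.13 (0.862), both above vehicle. In kidney it was 0.06 ± 0.10 from Nav under DMF179.2 and 0.05 ± 0.10 under the combination, also uncalled.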

How the data were processed

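Expression was measured on 308 arrays, and the values are log2 values deposited by the authors for 45141 probe sets. Per the submitters' processing notes RMA, GCRMA, R 2.11.1 and limma 3.4.5 were used; the sources used here do not say which did which step. Arrays of a tissue share a lowest value that differs between tissues, so tissues were fitted apart. Of 28898 single-symbol probe sets, the one with the highest mean over all arrays stood for each of 17097 genes. A gene was tested in a tissue if 5 or more arrays lay above the 50th percentile of all values there. limma 3.58.1 (R 4.3.3) fitted 1 mean per group over all 6 groups of a tissue, and p-values were Benjamini-Hochberg adjusted over all genes tested per comparison. Values are log2 differences ± SE unless marked SD. Groups come from sample titles. The labels do not say that arrays of a group come from separate animals, so p-values measure the spread between these arrays. The number of arrays limits the precision. The fits were also run on simulated data with independent noise for each value. Such data cannot show how the fits fare with shifts shared by the arrays of a group. All 6 members in every tissue were to be named, with up to 3 called genes by smallest adjusted p in each related list and the 3 genes of highest correlation with each member. Chac1 and tissue markers were chosen after their values were seen. The members, lists and tests were chosen with earlier results of these data known. Promoter bases and gene positions are RefSeq's, build GRCm38.p6.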

Additional observations from a re-analysis of the deposited data

Results flagged for a closer look

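Of 210 groups of 5 to 8 arrays of a member and a tissue, 17 held an array far from the rest by Dixon's 95% critical value, and chance gives about 1 in 20. Gpx2 in jejunum had 13.19 in Nav replicate 44, against 11.55 to 12.25 in the rest of that group. Gpx3 had 13.86 in kidney of DMF100 replicate 13 (the rest 13.63 to 13.73), 10.67 in spleen of MEF79.2 replicate 25 (10.93 to 11.11) and 11.60 in spleen of Nav replicate 40 (10.41 to 10.92).

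Gpx4 gave 7 of the 17. In brain it had 11.19 in DMF100 replicate 11 (the rest 11.29 to 11.35), 11.70 in MEF79.2 replicate 25 (11.37 to 11.47) and 11.23 in replicate 34 of the combination (11.32 to 11.39). In mesenteric node it had 10.97 in replicate 35 of the combination (10.38 to 10.56), and in spleen 10.47 in replicate 33 of the combination (10.18 to 10.31). In Nav replicate 40 it had 10.48 in blood (9.50 to 9.69) and 10.50 in inguinal node (10.18 to 10.32).

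Gpx7 had 5.51 in inguinal node of MEF79.2 replicate 25 (the rest 5.91 to 6.06). Gpx8 had 5.98 in blood of DMF100 replicate 14 (4.50 to 5.08), 8.29 in brain of DMF179.2 replicate 18 (8.72 to 9.07) and 7.89 in jejunum of DMF179.2 replicate 19 (8.37 to 8.67). It had 8.56 in brain of Nav replicate 45 (8.84 to 9.09) and 9.60 in inguinal node of vehicle replicate 2 (8.02 to 8.56).

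The response to DMF179.2 differed between tissues for Gpx4 (limma F = 4.48), Gpx1 (F = 3.87) and Gpx8 (F = 2.83), and that of Gpx4 was 0.29 larger in jejunum than in kidney on the log2 scale.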

How the results depend on the processing

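Of the calls against vehicle, those of Gpx4 in jejunum and spleen under DMF179.2, of Gpx4 in kidney under the combination, of Gpx7 in kidney under DMF179.2 and the combination and of Gpx7 in mesenteric node under the combination stayed under each alternative that kept vehicle as the reference, all arrays and the gene in the test. Gpx7 was not tested with the 70th percentile filter, so its calls are absent there. For Gpx4, the fit over all probe sets was scored on the brighter set alone. The second Gpx4 set was not called in that fit under DMF179.2 in jejunum (limma adjusted p = 0.0504) or spleen (0.0993). Against Nav, the called differences of Gpx7 in mesenteric node turned negative, at -0.16 (DMF179.2) and -0.04 (combination); no other called difference changed sign under an alternative. The number of called pairs of a member and a tissue under DMF179.2 (7) was 11 with array weights, 1 of them a decrease (Gpx1 in jejunum), 4 with only the 2 groups compared and 4 with Nav as the reference group. Under the combination (5) it was 3 with a 70th percentile filter, hybridisation controls as a covariate, renewed quantile normalization or only the 2 groups compared, and 1 with Nav as the reference. Under MEF79.2 (2) it was 5 with Nav as the reference, 3 of them decreases, and 0 with each array centred. It was 1 there with the 2 groups alone, with quantile normalization or without brain replicate 25. Under DMF100 (0) it was 3 against Nav, 2 of them decreases, and 1 with a gene's probe sets averaged. For Nav (4) it was 2 with the 70th percentile filter. The combination against DMF100 (2) had 0 with the 70th percentile filter and 1 with centring, the covariate, no filter, the 2 groups alone or quantile normalization. DMF179.2 against DMF100 (0) had 4 with array weights and 1 with the probe set mean, and DMF179.2 against the combination (1) had 2 with array weights, centring or the 2 groups alone. MEF79.2 against DMF100 (1) had 0 with array weights or the covariate, and additivity (0) had 1 with array weights. The cause of these shifts was not tested, and additivity could not be fitted with 2 groups alone. Leaving out 1 array in turn, Gpx4 in jejunum under DMF179.2 stayed between 0.31 and 0.40 and was called in all 43 fits, and Gpx4 in kidney under the combination between 0.09 and 0.11 in all 46. Blood, with groups of 5 under MEF79.2 and Nav, had 4 members called in 0 of 10 such limma fits. Without mesenteric node DMF179.2 replicate 23 the DMF179.2 count was 5. Calls over all genes and tissues rose with array weights to 3716 under DMF100 (against 1507), 3771 under MEF79.2 (2079), 5609 for DMF179.2 against DMF100 (1745), 3754 for MEF79.2 against DMF100 (2154) and 1598 for additivity (295). With probe sets in place of genes they reached 13603 under DMF179.2 (8465) and 21030 for Nav (13414), and with the 2 groups alone they fell to 975 under DMF100. With the hybridisation controls they fell to 824 for MEF79.2 against DMF100, and with the 2 groups alone to 1521 for the combination against DMF100 (2552) and 1147 for DMF179.2 against the combination (1819). Comparing Nav with the treatments and leaving out the 2 brain arrays were chosen after seeing the data. Replicate numbers do not recur between groups of a tissue, so the replicate block could enter the interaction test alone, where Gpx4, Gpx1 and Gpx8 under DMF179.2 stayed called (limma adjusted p = 0.000284, 0.00215 and 0.0172; consensus correlation 0.14), 3 members with and without it. Over all 7849 genes the block moved the calls of that test to 499 under DMF100, against 276 without it, to 1514 under MEF79.2, against 728, and to 2189 under the combination, against 1264. Of 866 same-numbered pairs of arrays from different tissues, 532 (61.4%) had deviations that correlated over 0.1. The median correlation of a pair of tissues ran from 0.05 to 0.23. Arrays with different numbers were not compared in this way, so whether the number marks an animal was not tested. Without the block, the interaction test took arrays of different tissues as independent, as did the difference between jejunum and kidney.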

Other observations

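Gpx5 and Gpx6, the remaining glutathione peroxidase genes, are not among the members. Gpx5, known from the epididymis, was at the lowest value of its tissue in every vehicle array of the 7 tissues. Gpx6, known in the mouse from the olfactory epithelium, was at that value in vehicle arrays of 6 tissues and averaged 10.16 ± 0.11 on the log2 scale in vehicle kidneys (SD, n = 7), a mean rank of 90.8%.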
